A study of Drosophila melanogaster with 5 samples.

Results

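The nuclear genes of mitochondrial complex I were examined in flight muscle depleted of M1BP (Motif-1 binding protein), a DNA-binding factor that recognises the core promoter element Motif 1. Members were all genes whose symbol in the deposited tables begins with ND-, which gave 40 of the 17494 genes counted. Of these, 34 were main subunits and 6 were paralogues, that is, genes named after a main subunit with L, or L and a digit, added (ND-24L, ND-49L, ND-B14.5AL, ND-51L2, ND-51L1 and ND-20L). ND-MNLL ends in L but is a subunit in its own right and was counted as such. RNA was sequenced from dorsolongitudinal indirect flight muscles of staged Drosophila melanogaster pupae (25 °C), 48 h after the start of the pupal stage (48 h APF). The M1BP RNAi group (n = 2, replicates 2 and 3) expressed UAS-M1BP RNAi under Mef2-GAL4, a driver active in the muscle lineage, and the study used the weaker of its pair of RNAi lines. The WT group (n = 3, replicates 1, 2 and 3) carried Mef2-GAL4 without the RNAi transgene, so both groups shared the driver. Each library pooled muscles of 6 to 8 pupae, whose sex was not given by the labels.

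Complex I, NADH:ubiquinone oxidoreductase, is the entry point of electrons from NADH into the respiratory chain and pumps protons across the inner mitochondrial membrane. It is L-shaped, with a matrix arm that carries the flavin and the iron-sulphur clusters and a membrane arm whose core is made from mitochondrial DNA. Core subunits do the catalysis, accessory subunits surround and stabilise them, and assembly factors help to build the complex without staying in it. Flight muscle is packed with mitochondria and depends on this chain for flight. The arm given below for each gene is that of its human orthologue.

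The libraries held 57514444 and 46504821 counts in M1BP RNAi and 41676901 to 53556469 in WT. M1BP itself had 410 and 456 normalised counts in M1BP RNAi, against 666, 673 and 642 in WT, where a normalised count is a read count divided by the size factor of its library. The M1BP RNAi libraries were both below every WT library, and the log2 fold change was -0.61 ± 0.136 (SE; adjusted p = 1.04e-04 by DESeq2), though M1BP was not called when any 1 library was left out (DESeq2 adjusted p 0.0135 to 0.181). M1BP was not called in edgeR either (edgeR adjusted p 0.0243). The 8 flight muscle markers were all detected and none was called, the flight muscle actin Act88F standing at 616104 and 635906 normalised counts in M1BP RNAi and 577702 to 768237 in WT. Their log2 fold changes ran from -0.47 for wupA (DESeq2 adjusted p 0.0490) to 0.22 for TpnC4, the only positive one. For wupA and up both M1BP RNAi libraries lay below every WT library, while the groups overlapped for the other markers. Among all genes tested, 48.9% did not overlap between the groups, in either direction. Of 21 testis markers, 21 had a count in M1BP RNAi replicate 2 and 17 in replicate 3, against 9 to 17 in WT. Their summed level was 8658 normalised counts in M1BP RNAi replicate 2 but 363 in replicate 3, against 233 to 356 in WT. Replicate 2 of M1BP RNAi thus stood apart. Of the 21 markers, 5 were called higher, beside 3.78% of all genes tested. In all 5, M1BP RNAi replicate 2 was far above replicate 3, as for Mst87F with 623 and 33.4 normalised counts. The testis regulators aly, sa and nht stayed under 3 normalised counts in every library, while can, another of them, had 9.50 in M1BP RNAi replicate 2 and 0 in replicate 3, against 0 to 2.13 in WT. None of the markers of fat body (5 genes), neurons (4) or haemocytes (3) was called. The RNA lncRNA:roX1, expressed in males, was at 9618 and 5900 normalised counts in M1BP RNAi and at 14.4, 4994 and 1062 in WT.

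A gene was called when its DESeq2 adjusted p was at most 0.001 and its fold change at least 1.5, the rule of the study. All 40 members were tested, and 4 were called, all of them main subunits and all accessory. ND-B14, ND-B15 and ND-15 were lower in M1BP RNAi, and ND-B8 was higher. The 3 members called lower were 7.5% of the members, where 2.98% of the 11282 genes tested were called lower. The single member called higher was 2.5%, where 3.78% of all genes tested were called higher, and the 4 calls together were 10.0%, beside 6.75% for all genes. The edgeR quasi-likelihood test called none of the 34 members it could test, with 4 at an unadjusted p under 0.05, the same 4 genes. That was 11.8% of the members it tested, beside 31.1% of all genes it tested. It called 8 of its 9833 genes at this threshold, or 0.0814%. The median log2 fold change of the 34 main subunits was -0.06, beside 0.02 for all genes tested.

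**Figure D1:**
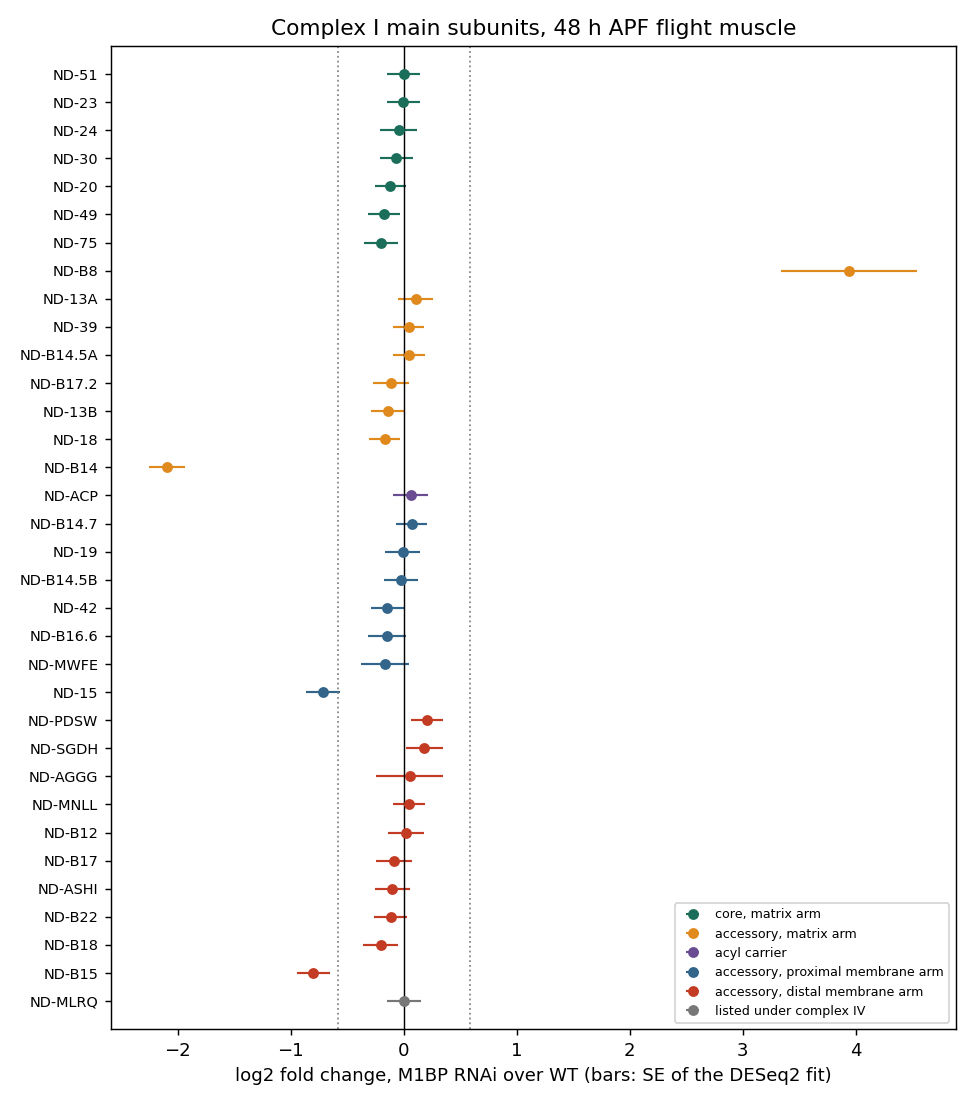
Log2 fold change (M1BP RNAi over WT) of the 34 main subunits, grouped by arm of the complex from top to bottom, with bars for the standard error of the DESeq2 fit and dotted lines at 1.5-fold. ND-B14, ND-15 and ND-B15 lie left of the dotted line at -2.10, -0.72 and -0.80, ND-B8 lies far to the right at 3.94, and the 30 others lie between -0.20 and 0.21.

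ND-B14 (FBgn0033570, dm6, chromosome arm 2R, 10897144 to 10897885, minus strand, protein coding) showed the largest decrease of the 34 main subunits. It encodes the fly orthologue of NDUFA6, a small accessory subunit of the matrix arm that in mammals binds the mitochondrial acyl carrier protein. ND-B14 had 2859 and 2844 normalised counts in the M1BP RNAi libraries, against 11882, 10560.1 and 14119.9 in the WT libraries. The groups were far apart, and the highest M1BP RNAi library was well under the lowest WT library. The mean was 2851 ± 10.2 in M1BP RNAi (SD, n = 2) and 12187 ± 1799 in WT (SD, n = 3), a decrease of 4.27-fold, and the log2 fold change was -2.10 ± 0.157 (SE; adjusted p = 1.80e-38 by DESeq2). ND-B14 was called in every DESeq2 setting tried, and in edgeR it had an adjusted p of 0.00226. Its 3′ end overlaps CG12942 on the opposite strand over 79 bases, and CG12942 had only 105 and 86.4 normalised counts in M1BP RNAi and 118 to 204 in WT. Upstream on the same strand lies Rpb5, a subunit gene of the RNA polymerases, which ends 145 bases before ND-B14 begins. Rpb5 rose, with 1389 and 1333 normalised counts in M1BP RNAi against 687, 786 and 793 in WT (log2 fold change 0.85 ± 0.129 SE, adjusted p = 1.98e-09 by DESeq2).

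ND-B15 (FBgn0033961, chromosome arm 2R, 14756516 to 14757072, plus strand, protein coding) is the orthologue of NDUFB4, an accessory subunit of the distal membrane arm. It had 6778 and 6888 normalised counts in M1BP RNAi, against 11468, 10576 and 13627 in WT. The M1BP RNAi libraries were almost level with each other and below each WT library. ND-B15 fell 1.74-fold, to 6833 ± 77.9 in M1BP RNAi (SD, n = 2) against 11890.2 ± 1569 in WT (SD, n = 3), and the log2 fold change was -0.80 ± 0.143 (SE; adjusted p = 5.78e-07 by DESeq2). Its 3′ end meets that of Trs31, a gene on the opposite strand, over 9 bases. Trs31 had 281 and 287 normalised counts in M1BP RNAi, against 431, 420.2 and 506 in WT, and was not called (log2 fold change -0.67 ± 0.181 SE, adjusted p = 0.00209 by DESeq2).

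ND-15 (FBgn0031228, chromosome arm 2L, 114726 to 156030, plus strand, protein coding) is the orthologue of NDUFS5, an accessory subunit on the intermembrane space side of the proximal membrane arm. It had 11498 and 12327.5 normalised counts in M1BP RNAi, against 18949, 17225 and 22520.5 in WT. The groups did not overlap, as for ND-B14 and ND-B15. ND-15 fell 1.64-fold, to 11913 ± 586 in M1BP RNAi (SD, n = 2) against 19565 ± 2701 in WT (SD, n = 3), and the log2 fold change was -0.72 ± 0.149 (SE; adjusted p = 2.99e-05 by DESeq2). It shares 178 exon bases with CG3709 on the opposite strand, which had 500 and 416 normalised counts in M1BP RNAi and 410 to 427 in WT. The calls of ND-B15 and ND-15 each rested on both M1BP RNAi libraries: without replicate 2 the DESeq2 adjusted p was 0.00799 for ND-B15 and 0.0424 for ND-15, and without replicate 3 it was 0.00179 and 0.00412. With lncRNA:roX1 as a covariate, neither was called (DESeq2 adjusted p 0.00286 for ND-B15 and 0.0128 for ND-15). The edgeR adjusted p was 0.0217 for ND-B15 and 0.0339 for ND-15.

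ND-B8 (FBgn0040705, chromosome arm 2L, 4454626 to 4455207, plus strand, protein coding) was the only member called higher. It is the orthologue of NDUFA2, an accessory subunit of the matrix arm. Its raw counts were 221 and 229 in M1BP RNAi, against 18, 5 and 11 in WT, or 161 and 225 normalised counts in M1BP RNAi against 19.9, 5.95 and 11.7 in WT. Both M1BP RNAi libraries were high, with the higher value in replicate 3, the library with few testis marker counts. The mean was 193 ± 44.8 in M1BP RNAi (SD, n = 2) and 12.5 ± 7.02 in WT (SD, n = 3), 15.4-fold higher in M1BP RNAi, and the log2 fold change was 3.94 ± 0.604 (SE; adjusted p = 2.59e-09 by DESeq2). In edgeR its adjusted p was 0.0126, and ND-B8 was called in every DESeq2 setting tried. Even so, ND-B8 remained far below the other subunits: per kilobase of exon it reached 2.09% of the median main subunit in M1BP RNAi and 0.126% in WT. It shares 71 of its 460 exon bases with Gs1l on the opposite strand, which had 2067 and 2036 normalised counts in M1BP RNAi and 1570.2 to 2010 in WT and was not called (log2 fold change 0.25 ± 0.162 SE, adjusted p = 0.266 by DESeq2). Whether any of these reads came from Gs1l was not tested.

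**Figure D2:**
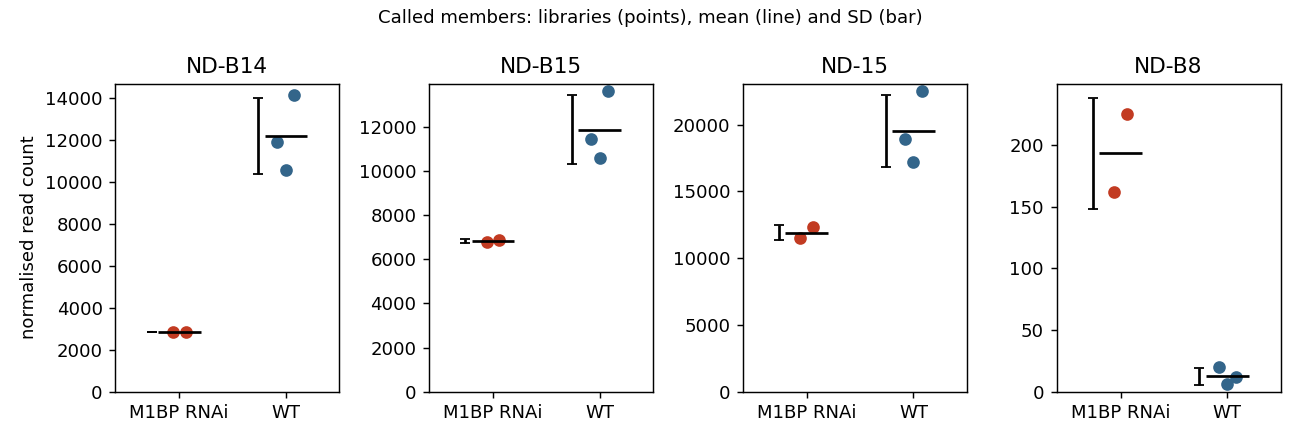
Normalised read counts of the 4 called members, with each library as a point, the group mean as a line and the SD as a bar. In each panel the M1BP RNAi libraries (left, n = 2) do not overlap the WT libraries (right, n = 3): ND-B14, ND-B15 and ND-15 are lower and ND-B8 is higher, on an axis of far lower counts than those of the other panels.

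None of the 7 core subunits was called, and none had an unadjusted p under 0.05 in DESeq2. The subunits that oxidise NADH are ND-51, which binds the flavin, ND-24 and ND-75. ND-51 had 45742 and 48266 normalised counts in M1BP RNAi, against 47687, 40304 and 53244 in WT, with a log2 fold change of -0.0023 (SE 0.149). ND-24 had 21381 and 21008 in M1BP RNAi, against 22460.0, 18135 and 24990.0 in WT. ND-75, the largest of the core subunits, had the largest shift among them, with 65815 and 65564 in M1BP RNAi against 78335, 63807 and 84327 in WT (log2 fold change -0.20 ± 0.149 SE, adjusted p = 0.341 by DESeq2). In all 3 genes the M1BP RNAi values lay inside the WT range. The remaining core subunits, ND-49, ND-30, ND-20 and ND-23, carry electrons to ubiquinone. Their means in M1BP RNAi (SD, n = 2) were 50296 ± 443 for ND-49, 25259 ± 670 for ND-30, 24119 ± 598 for ND-20 and 24925 ± 160 for ND-23. In WT (SD, n = 3) the means were 56832 ± 7404 for ND-49, 26464 ± 3702 for ND-30, 26202 ± 3240 for ND-20 and 25004 ± 3360 for ND-23. The log2 fold changes of these 4 genes lay between -0.18 and -0.0046, within 1.5 times their standard errors of 0.135 to 0.147.

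Of the 25 accessory subunits counted in either arm, 21 were not called: 6 of 8 in the matrix arm, 6 of 7 in the proximal membrane arm and 9 of 10 in the distal membrane arm. The acyl carrier protein ND-ACP, which sits in both arms, was not called either, nor was ND-MLRQ, the orthologue of NDUFA4, which the study lists under complex IV. Taken with the core subunits, the 30 uncalled main subunits had log2 fold changes of -0.20 to 0.21, 10 of them positive and 20 negative, with standard errors of 0.134 to 0.293. This split rested on single WT libraries, with 20 positive and 10 negative without WT replicate 3, and 3 positive and 27 negative without WT replicate 2. The smallest DESeq2 adjusted p among them was 0.288, for ND-PDSW, the orthologue of NDUFB10 in the distal membrane arm. ND-PDSW had 25590.0 and 27200 normalised counts in M1BP RNAi, against 22363, 20257 and 25999 in WT. In all 30 genes the normalised counts of the groups overlapped, while they did not overlap in any called main subunit or in 48.9% of all genes tested. The median size of the log2 fold change was 0.09 over these 30 genes, beside 0.38 over all genes tested. These 30 were picked for not being called, and all genes tested include called ones. Overlap and small changes were thus favoured by the choice, and no stability of the complex can be read from these contrasts. The 9 main subunits on the X chromosome, none called, had a median log2 fold change of -0.12, and the 25 on autosomes one of -0.01. Over all genes tested, the medians were -3.66e-05 on the X chromosome and 0.02 on autosomes, and the difference between X-linked and autosomal subunits was not tested.

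The main subunits varied together from library to library. WT replicate 3 had the highest of the WT values in 33 of the 34 main subunits and WT replicate 2 the lowest in 33, where this held for 37.6% and 33.8% of all genes tested. Over the 29 uncalled main subunits other than the low-count ND-AGGG, WT replicate 3 was 1.31-fold above WT replicate 2 in the median, with a range of 1.24 to 1.56, while the median over all genes tested was 1.01. The M1BP RNAi libraries differed less, replicate 3 being 1.04-fold above replicate 2 (0.974 to 1.16). Relative to the WT mean, the median log2 ratio of these 29 genes stood at -0.09 in M1BP RNAi replicate 2 and at -0.04 in replicate 3, beside -0.03, -0.20 and 0.19 in WT replicates 1, 2 and 3. The median log2 ratio of the 8 flight muscle markers stood at -0.43 in M1BP RNAi replicate 2 and at -0.23 in replicate 3, beside 0.01, -0.23 and 0.20 in the same WT libraries. The part of the muscle content of the libraries in this shared variation was not tested. Fewer muscle cells and less RNA per cell cannot be told apart in such bulk samples. Each library was then centred on the median of the 29 uncalled main subunits above, a scale chosen after seeing the data. The median SD of these 29 genes over the WT libraries dropped to 0.0443 from 0.199 on the log2 scale. Since these genes set the scale and were picked for not being called, their narrow spread is partly built in. ND-B14, ND-B15 and ND-15 lay at -2.03, -0.74 and -0.65 on it, with an SD over WT libraries of 0.0159, 0.0295 and 0.0201, and the 29 genes lay between -0.14 and 0.27.

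**Figure D3:**
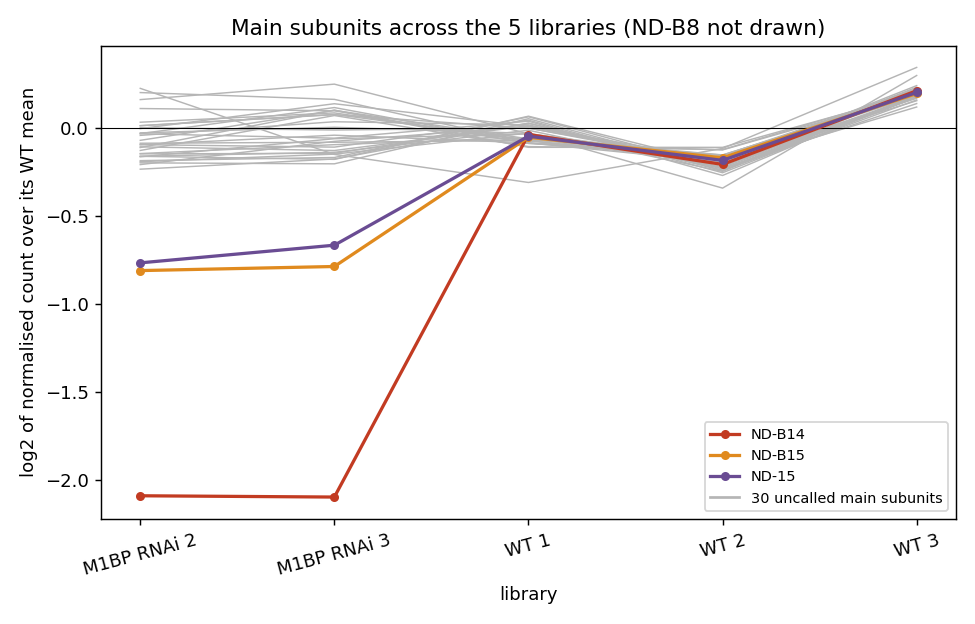
Log2 of the normalised count over its WT mean in each library, with 1 line per main subunit (ND-B8 is not drawn, being off the scale). Among the WT libraries the 30 uncalled subunits (grey) run together, lowest in replicate 2 and highest in replicate 3 except that ND-AGGG is lowest in replicate 1, and ND-B14, ND-B15 and ND-15 follow them in WT but drop away in both M1BP RNAi libraries.

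The scale mattered for the family as a whole. The summed normalised count of the 34 main subunits was 734171 and 759783 in M1BP RNAi, against 787581, 690187 and 904136 in WT, so that the groups overlapped. As a share of all counts it was 1.75% and 1.66% in M1BP RNAi, against 1.53%, 1.39% and 1.59% in WT, so that both M1BP RNAi libraries were above every WT library. Counts scaled to equal library totals (CPM) moved the median gene by 0.28 on the log2 scale, beside 0.01 for normalised counts, and the log2 ratio of the summed main subunits, 0.18 in CPM and -0.09 in normalised counts, was below that of the median gene on either scale. In CPM, 23 of the 30 uncalled main subunits had both M1BP RNAi libraries above every WT library, as did 45.2% of all genes tested. The 3 lower subunits were below every WT library on both scales. In CPM ND-15, the least changed of them, had 274 and 270.0 in M1BP RNAi, against 367, 347 and 395 in WT.

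Among the main subunits the level in WT, per kilobase of exon, ranged 6.61-fold over 32 genes, between 9644 for ND-MWFE and 63700 for ND-MLRQ. ND-MLRQ was the highest, followed by ND-ACP (44756 in M1BP RNAi and 42932 in WT) and the core subunit ND-49 (31573 in M1BP RNAi and 35676 in WT). ND-MWFE, the orthologue of NDUFA1, stood at 8574 per kilobase in M1BP RNAi. The median main subunit was at 20130.1 in M1BP RNAi and 21597 in WT, above 97.8% of all genes tested in WT. Below these 32 genes came ND-AGGG, the orthologue of NDUFB2, at 662 per kilobase in M1BP RNAi and 639 in WT, or 3.29% and 2.96% of the median main subunit of the same group. ND-B8 was the lowest, at 420 per kilobase in M1BP RNAi and 27.2 in WT. Neighbours in this order mostly overlapped in their library values, but ND-MLRQ, ND-AGGG and ND-B8 did not overlap any neighbour in WT. Reads that aligned to more than 1 place were not counted, and whether ND-B8 or ND-AGGG shares sequence with another place in the genome was not tested. ND-MNLL lies wholly within the exons of CG45089 on the same strand and the counts of the pair were identical in all 5 libraries, so its level cannot be told apart from that of CG45089.

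**Figure D4:**
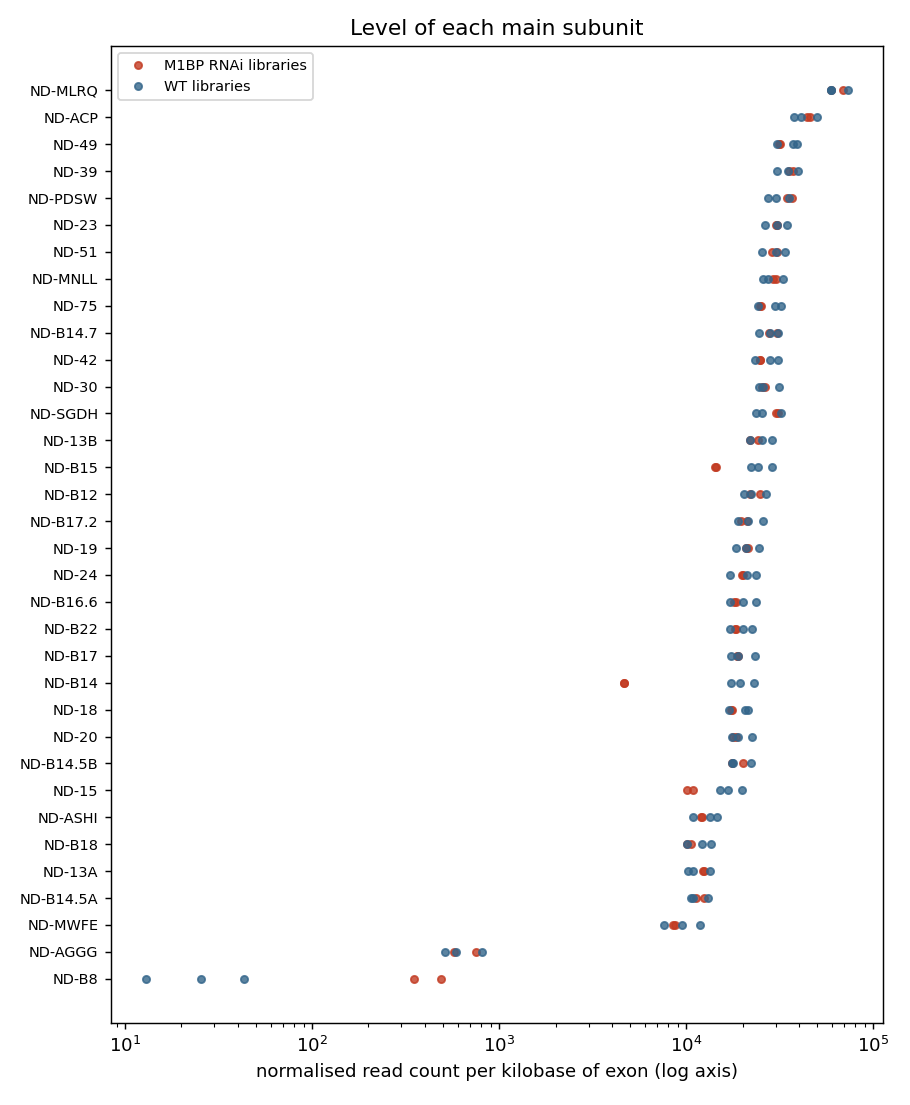
Normalised read count per kilobase of exon (log axis) of each main subunit, with 1 point per library, ordered by the WT mean. Most subunits lie within a factor of 6.61 of each other in WT, ND-AGGG and ND-B8 lie far below, and the M1BP RNAi points of ND-B14, ND-B15 and ND-15 lie left of their WT points while those of ND-B8 lie right.

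Motif 1 was then set beside the expression values, since M1BP binds it. The study scanned windows of 250 bases before to 50 bases after the start site of nuclear respiratory chain genes, assembly factors included, and listed the best match to the M1BP matrix, 1 per promoter. Matches were listed for 79 promoters, 24 of them of members, all main subunits. The exact core GGTCACACT, on either strand, was in 21 of the 79 matches (26.6%) and in 7 of the 24 of members, and promoters of other genes were not scanned here. The matches of 5 uncalled members are shown first because they hold the exact core, each on the strand of the motif with the 9 positions of the core in capitals. Those of ND-B14, which was called lower, and of the uncalled ND-MWFE also hold it but are not printed here. ND-ACP, in the window chr3L:1329699-1329999 (dm6, gene on the plus strand), ND-PDSW, in chr2L:3465907-3466207 (plus), ND-13A, in chr2L:5100238-5100538 (minus), ND-B17, in chr2L:15751028-15751328 (minus), and ND-18, in chrX:19492171-19492471 (plus), read as follows.
ND-ACP: catacGGTCACACTgcta
ND-PDSW: actgcGGTCACACTggct
ND-13A: tcagcGGTCACACTggtt
ND-B17: agtgcGGTCACACTggcg
ND-18: cgcctGGTCACACTggca
The log2 fold changes of these 5 genes were 0.06 for ND-ACP, 0.21 for ND-PDSW, 0.10 for ND-13A, -0.08 for ND-B17 and -0.17 for ND-18, and none was called. The best matches of the called members ND-15, in chr2L:114476-114776 (plus), and ND-B8, in chr2L:4454376-4454676 (plus), are shown next, with the positions aligned to the core in capitals.
ND-15: cagctGGGAACTCCgtca
ND-B8: cggccAGTCACTCAtttg
ND-15 differed from the core at 4 of the 9 positions and ND-B8 at 3.

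The other 2 members with the exact core were ND-B14 and ND-MWFE. Thus, of the 7 members with the exact core, ND-B14 was called lower and 6 were not called, with log2 fold changes of -0.17 to 0.21. ND-B15 differed from the core at 2 of 9 positions. Among the 17 members listed without the exact core, 3 were called: ND-B15 and ND-15 lower and ND-B8 higher. Over all genes tested, 2.98% were called lower and 3.78% higher, and the counts of members rest on few genes. A match of letters does not show that M1BP was bound.

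The 6 paralogues were at or near 0 in every library but 1. In M1BP RNAi replicate 2 and then replicate 3, the raw counts were 98 and 2 for ND-24L, 96 and 1 for ND-49L, 48 and 1 for ND-B14.5AL, 43 and 1 for ND-51L2, 46 and 0 for ND-51L1, and 34 and 0 for ND-20L. In the WT libraries no paralogue had more than 4 counts. ND-51L2 had 0 in all 3 WT libraries, which allows up to 3 counts in each, counting error only. The 6 genes together had 365 and 5 raw counts in M1BP RNAi, against 9, 3 and 3 in WT. Their rise was thus confined to M1BP RNAi replicate 2, the library in which the testis markers were also high, and the part of testis RNA in it was not tested.

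The parents of these genes are ND-24, ND-49, ND-20 and ND-51, all core subunits, and the accessory subunit ND-B14.5A, the orthologue of NDUFA7. Per kilobase of exon, the paralogues in M1BP RNAi replicate 2 reached 0.423% of the parent for ND-24L and 0.411% for ND-B14.5AL, and 0.0545% to 0.179% for the other 4. In M1BP RNAi replicate 3 the highest was 0.0118%, for ND-24L, and in WT it was 0.0172%, for ND-20L. DESeq2 called none of the 6, with 4 at an unadjusted p under 0.05. The edgeR test left them out because only M1BP RNAi replicate 2 held enough counts, fewer libraries than its filter needs. ND-24L had the smallest DESeq2 adjusted p, 0.0441, followed by ND-49L with 0.0601, ND-B14.5AL with 0.103 and ND-51L2 with 0.121. At an adjusted p of 0.05 with the same fold minimum, ND-24L would be called, as were 15.9% of all genes tested. Main subunits and paralogues thus differed between the M1BP RNAi libraries: the 29 uncalled main subunits above stood at 0.974 to 1.16 times their replicate 2 level in M1BP RNAi replicate 3, while the paralogues together had 365 raw counts in replicate 2 and 5 in replicate 3.

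**Figure D5:**
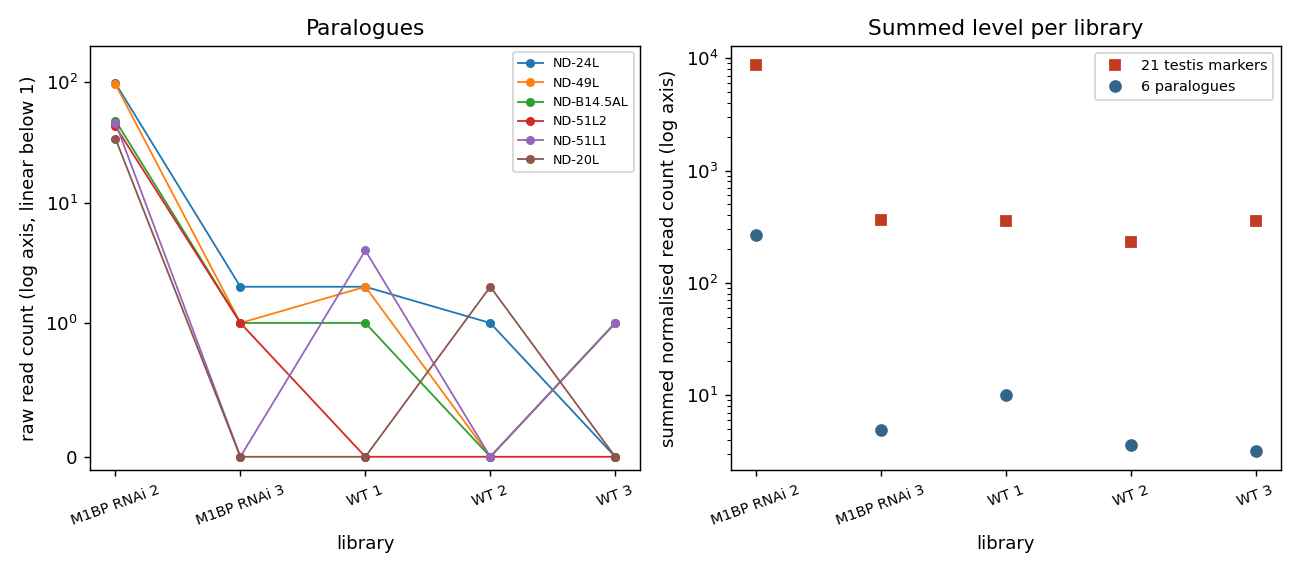
Left, raw read counts of the 6 paralogues in each library (log axis, linear below 1), with lines joining the values of a gene. Right, summed normalised counts of the 6 paralogues and of 21 testis markers (log axis), where both are highest in M1BP RNAi replicate 2, at 267 and 8658, against 4.91 and 363 in M1BP RNAi replicate 3.

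Other genes of the pathway were counted in the same fit. Of 13 assembly factors listed by the study, DESeq2 called 1 higher and 0 lower, beside 3.78% higher and 2.98% lower over all genes tested. CG5569, the one called, had 5966 and 5235 normalised counts in M1BP RNAi, against 3469, 3120.1 and 3970 in WT (log2 fold change 0.67 ± 0.152 SE, adjusted p = 1.58e-04 by DESeq2, edgeR adjusted p 0.0304). Of the 12 others, the lowest log2 fold change was -0.34 (SE 0.143, DESeq2 adjusted p 0.0645), for CG11722, and the highest 0.65 (SE 0.895), for CG3270, which had 9.50 and 12.8 normalised counts in M1BP RNAi and 5.95 to 8.85 in WT. The 3 listed subunits without an ND- symbol, NP15.6, CG11752 and CG40472, were not called, with log2 fold changes of 0.02, -0.19 and -0.10.

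The 7 complex I subunits made from mitochondrial DNA form the core of the membrane arm. Their median log2 fold change was -0.38, and 2 of the 7 were called lower and none higher, beside 2.98% of all genes called lower. ND4 had 52039 and 78458 normalised counts in M1BP RNAi, against 199020.0, 191402 and 180310.0 in WT (log2 fold change -1.54 ± 0.199 SE, adjusted p = 4.33e-13 by DESeq2, edgeR adjusted p 0.0134). ND4L, its neighbour in the mitochondrial genome, had 447 and 407 in M1BP RNAi, against 2093, 1368 and 1290.1 in WT (log2 fold change -1.89 ± 0.276 SE, adjusted p = 3.04e-10 by DESeq2, edgeR adjusted p 0.0129). Libraries were made from polyadenylated RNA, so these values are of transcripts that carry a tail. In normalised counts the M1BP RNAi libraries lay below every WT library for both genes, and also for the uncalled ND5 (64308 and 121239 in M1BP RNAi, against 163163 to 192005 in WT) and ND6 (611 and 846 in M1BP RNAi, against 871 to 994 in WT). Among all genes tested, 48.9% did not overlap between the groups, in either direction. The 7 nuclear core subunits overlapped between groups on this scale.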

How the data were processed

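RNA was sequenced from flight muscle of M1BP RNAi (n = 2) and WT (n = 3) pupae, grouped by the sample titles, with a stranded mRNA kit per the labels. The authors deposited a table of raw counts, which per the file headers were of reads aligned uniquely to dm6 and counted over exons, and the submitters' processing notes name Subread 2.0.3 and featureCounts. The aligner, the annotation release and the strand setting were not given in the sources used here. ND-51 shares 97 exon bases with CG34180 on the opposite strand, and their mean raw counts were 47746.8 for ND-51 and 0.8 for CG34180. Whether other genes overlapping on opposite strands shared reads was not tested. A second deposited table pairs identifiers with symbols; its other columns hold the authors' own comparison (mean, fold change and p-values) and were not used. All 40 members were in the supplied annotation with the same span, all protein coding. Unmapped count columns numbered 0.

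Counts of 17494 genes were tested in R 4.3.3 with the Wald test of DESeq2 1.42.0 on all 5 libraries without covariate, Benjamini-Hochberg adjusted over 11282 genes; calls needed adjusted p ≤ 0.001 together with a fold change ≥ 1.5, and edgeR 4.0.16 was an alternative. The script was tested on simulated data. With 57514444 and 46504821 counts in M1BP RNAi and 41676901 to 53556469 in WT, counting error was small for main subunits and not for paralogues. Counts of 3 or fewer were treated as the floor. Replicates are separate libraries of pooled pupae; where they do not come from separate crosses, the p-values measure only the spread between these samples.

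Named genes are M1BP, the called members, the 5 uncalled members with the smallest p, the 7 core subunits, every paralogue and, for levels, the 3 highest and 3 lowest main subunits; other pathway genes, neighbours and other members in the text were added with their values in view. The members, lists and markers were chosen with earlier results of these data known. Motif matches were taken as sequences from the study's supplementary tables, with no score. Alternatives were edgeR, TMM size factors, a filter of at least 10 counts in 2 libraries, independent filtering off, the Cook filter off, no mitochondrial genome genes, adjusted p of 0.05, no fold minimum, the replicate number as a block, lncRNA:roX1 as a covariate, and each library left out.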

Additional observations from a re-analysis of the deposited data

How the results depend on the processing

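The 3 members called lower and the 1 called higher were also called with TMM size factors, the count filter, independent filtering or the Cook filter off, without mitochondrial genome genes, with no fold minimum and when any 1 WT library was left out. In edgeR 0 were called lower, 0 higher and 8 genes in all. There M1BP had a log2 fold change of -0.60 and was not called (edgeR adjusted p 0.0243). With lncRNA:roX1 as a covariate 1 member was called lower and 302 genes in all, and M1BP was at -0.60 and not called. At an adjusted p of 0.05, 2 members were called higher, 1 of them a paralogue, and 1799 genes in all. Leaving out 1 library gave 1 to 3 members called lower, 1 to 1 called higher and 0 to 0 paralogues, 319 to 937 genes in all, a median log2 fold change of the main subunits of -0.16 to 0.06 and one of M1BP of -0.68 to -0.52. Without either M1BP RNAi library a single library remained, assumed to vary as the WT libraries do. The median turned positive without WT replicate 3. The summed main subunits had a log2 ratio of -0.09 in normalised counts and 0.18 in CPM.

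Replicates 2 and 3 of the groups share numbers, but their deviations did not go together (r = -0.26 and -0.12). With n = 2 in M1BP RNAi, the deviations of its replicates mirror each other. These values therefore cannot tell whether samples of the same number were prepared together. With the replicate block 315 genes were called, M1BP was at -0.60 with an adjusted p of 0.443, and the 4 members stayed called (3 lower, 1 higher).

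Of 182 values of named genes under alternatives that kept all libraries, 9 turned in direction, all of genes near 0: ND-51 to 0.0083 in edgeR, 0.0108 with TMM, 0.0205 with the replicate block and 0.068 with the covariate, ND-23 to 0.0061, 0.0085, 0.0086 and 0.0454 in the same settings, and ND-24 to 0.0473 with the covariate. Leaving out 1 library turned 11 of 95 values, with ranges of -0.1145 to 0.0932 for ND-51, -0.1106 to 0.0933 for ND-23, -0.18 to 0.06 for ND-24, -0.1514 to 0.0502 for ND-30, -0.15 to 6.00 for ND-49L, -3.33 to 4.92 for ND-51L1 and -2.11 to 5.94 for ND-20L, the last 3 turning without M1BP RNAi replicate 2. The short core TCACACT was in 7 members, the number with the full core. Depth limits the paralogues, at 0 to 4 raw counts outside M1BP RNAi replicate 2.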
